A study of Danio rerio with 12 samples.

Results

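Keratins and claudins are the structural proteins of epithelia, and their transcripts were compared between elmo1+/+ and elmo1-/- zebrafish larvae. Members were all genes whose symbol, case ignored, begins with krt and a digit, with cyt1 or with cldn, apart from symbols beginning with krtcap or cldnd. The latter exclusion removed claudin domain genes and also the claudin cldnd, which had a mean of 0.417 counts. This rule found 61 of the 32520 gene identifiers, namely 22 keratins and 39 claudins. A minimum of 10 counts in at least 6 of the 12 samples kept 53 members, 21 keratins and 32 claudins. The rule used no difference between genotypes.

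Total RNA of whole larvae was sequenced on a BGISEQ-500 at 120 hours post fertilization, with 6 elmo1+/+ and 6 elmo1-/- samples of 30 pooled larvae each. Genotypes were taken from the sample titles, since the genotype label of the elmo1-/- samples reads hz, which is not explained. Elmo1 is an adaptor that works with Dock proteins to activate the GTPase Rac1. The elmo1-/- line carries a CRISPR/Cas9 frameshift insertion that ends translation early, and the transgenic background Tg(fli1:EGFP), in which endothelial cells express EGFP, is shared by both genotypes. The paper states, in a passage on adult fish, that controls of knockout animals were always littermates. Its sequencing methods do not repeat this for the larvae. Further mutant lines were not analysed here, so the loss of elmo1 and other traits of this mutant line cannot be told apart. The labels do not say whether the samples came from separate clutches, so p-values measure the spread between these pools only.

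Keratins assemble as pairs of type I and type II proteins into intermediate filaments, which are anchored at desmosomes between cells and at hemidesmosomes on the basement membrane. The skin of a larva has an outer periderm and a basal layer, each with keratins of its own, while Krt8 and Krt18 are known as the pair of simple epithelia. Claudins span the membrane in the tight junction and set which ions and solutes pass between cells. Some seal the skin, others form pores in gut and kidney, and a few are known from endothelium and myelin. As RNA came from whole larvae, fewer epithelial cells and less RNA per cell cannot be told apart.

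Total counts ranged from 20.8 to 21.8 per sample, in units of 1e+06. Abundance is given as counts per 1e+06 counts (CPM) between genotypes. Transcripts per 1e+06 transcripts (TPM), which are corrected for transcript length, are given wherever genes are compared with each other. Family sums, marker list sums and some single genes are also given in TPM for each genotype. The targeted gene elmo1 (ENSDARG00000098753) reached 121.7 to 143.3 CPM in elmo1+/+, with a median of 127.8, and 97.1 to 119.7 CPM in elmo1-/-, with a median of 107.4. The genotypes did not overlap (p = 0.00216 in a two-sided exact permutation test, the lowest possible with 6 against 6 samples). The log2 fold change was -0.26 (SE 0.059), and elmo1 did not pass the quasi-likelihood test of edgeR over all genes (Benjamini-Hochberg adjusted p = 0.137). Genes of each of 12 marker lists, from periderm to liver and muscle, were detected, and no listed gene that was matched to an identifier was at 0 throughout. Matches were found for 7 of 8 basal epidermis, 5 of 6 mucous cell, 5 of 6 endothelial and 4 of 5 skeletal muscle symbols, and for all symbols of the other lists.

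Keratins took a large share of the larval transcriptome. The 21 members summed to between 15627 and 18748 TPM in elmo1+/+ larvae, with a median of 17427, and to between 14942 and 19103 TPM in elmo1-/- larvae, with a median of 15714. The mean was 17466 ± 1107 TPM against 16432 ± 1658 TPM (SD, n = 6 each), or 1.75% against 1.64% of all transcripts. The ranges overlapped, and the lowest and the highest sample of all 12 were both elmo1-/-. The 32 claudins summed to between 437.9 and 544.9 TPM in elmo1+/+ and between 412.7 and 537.9 TPM in elmo1-/- larvae, with medians of 490.0 and 475.0. Their means were 491.9 ± 36.3 TPM and 472.8 ± 50.2 TPM (SD, n = 6 each). Over all samples, keratin transcripts were 35.1 times as abundant as claudin transcripts.

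Single keratins spanned a wide range of abundance. krt4, known from the zebrafish skin surface, was the most abundant by TPM, with 6006 in elmo1+/+ and 5450.5 in elmo1-/- larvae on average. It made up 34.2% ± 3.5 of keratin TPM in elmo1+/+ larvae and 33.1% ± 1.7 in elmo1-/- larvae (mean ± SD of 6 samples). Over all 12 samples, krt4, krt91, krt1-19e, krt5 and cyt1l each exceeded 1000 TPM and held 81.8% of keratin TPM together. A further 8 keratins lay between 100 and 1000 TPM and 8 below 100 TPM. The lowest, krt95, was 8707 times less abundant than krt4.

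Claudins were more evenly spread. cldn1 and cldni, both skin claudins, cldn15la, known from the intestine, cldnb, used as a marker of skin and of the migrating lateral line primordium, and cldne held 52.1% of claudin TPM together. Each of these 5 exceeded 30 TPM, 15 claudins lay between 5 and 30 TPM, and 12 below 5 TPM.

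**Figure D1:**
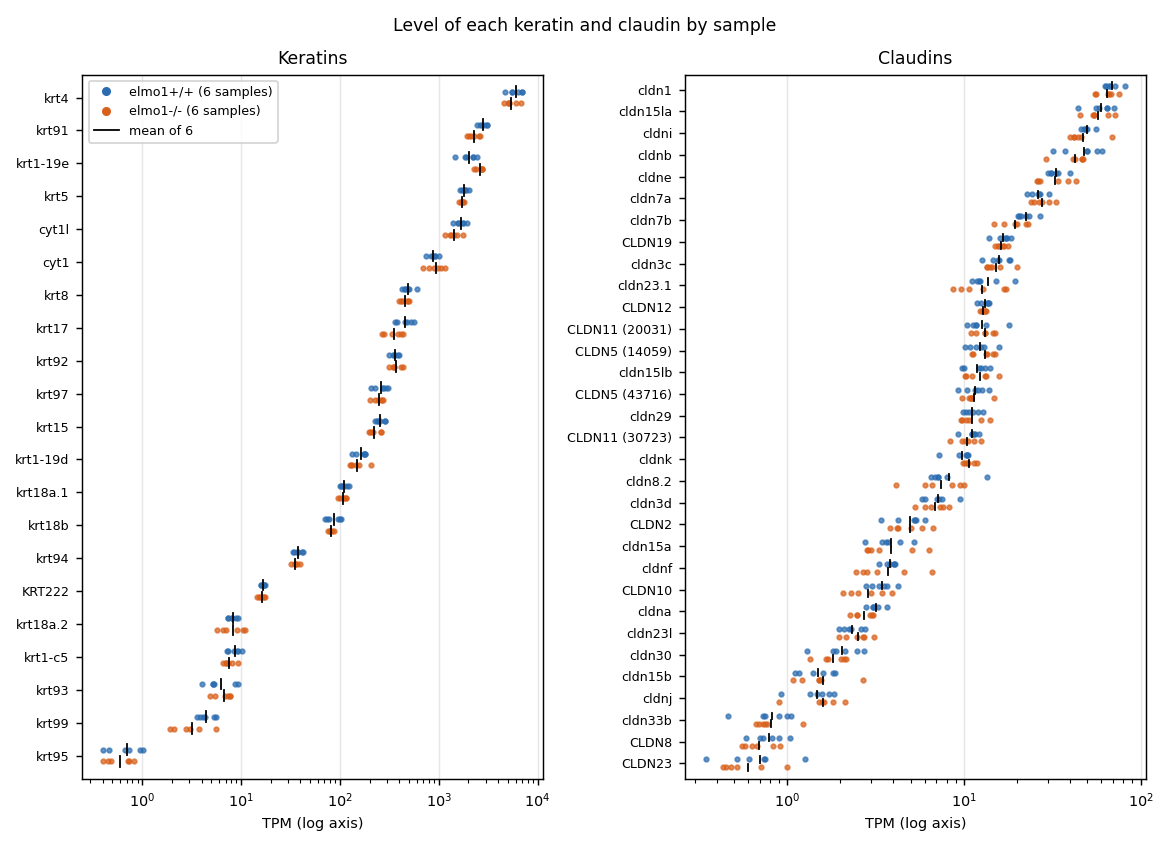
TPM of the 53 keratins and claudins in each of the 12 samples, on a log scale, with one row per gene and elmo1+/+ and elmo1-/- samples in separate colours. krt4 lies highest among keratins and cldn1 among claudins, and the points of the genotypes overlap in every row.

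None of the 21 keratins and none of the 32 claudins passed the test between genotypes. In edgeR's quasi-likelihood test over 21830 genes, 0.234% of all genes had an adjusted p under 0.05, namely 24 higher and 27 lower genes. Among keratins the smallest edgeR adjusted p was 0.331 and among claudins 0.774. At an unadjusted p under 0.05, 3 keratins and 1 claudin were found, beside 6.16% of all genes tested. Of these 4 members, krt1-19e and cldnk were higher in elmo1-/-, as were 3.06% of all genes, and krt91 and krt17 lower, as were 3.1%. DESeq2 and limma-voom called 0 members at an adjusted p under 0.05 as well, with 6 and 5 members at an unadjusted p under 0.05, beside 5.5% and 7.33% of all genes in those fits. In CPM, the genotypes overlapped for all 53 members, whereas 0.513% of all genes tested did not overlap.

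The size of any difference was bounded for most members. Of the 21 keratins, 15 had a 95% interval of the log2 fold change within 0.5 of 0, as did 26 of the 32 claudins and 76.7% of all genes tested. All 53 intervals stayed within 1 log2 unit. By sign, 6 keratins were higher and 15 lower in elmo1-/-, with a median log2 fold change of -0.0566, beside 51.7% higher and 48.3% lower genes and a median of 0.00427 over all genes tested. For claudins, 17 were higher and 15 lower with a median of 0.0122, but on the log2(TPM + 1) scale 23 were lower and the median was -0.0501, where the median of all genes was -0.0378. Regardless of sign, log2 fold changes had a median size of 0.0532 for claudins, 0.0990 for keratins and 0.0710 for all genes.

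**Figure D2:**
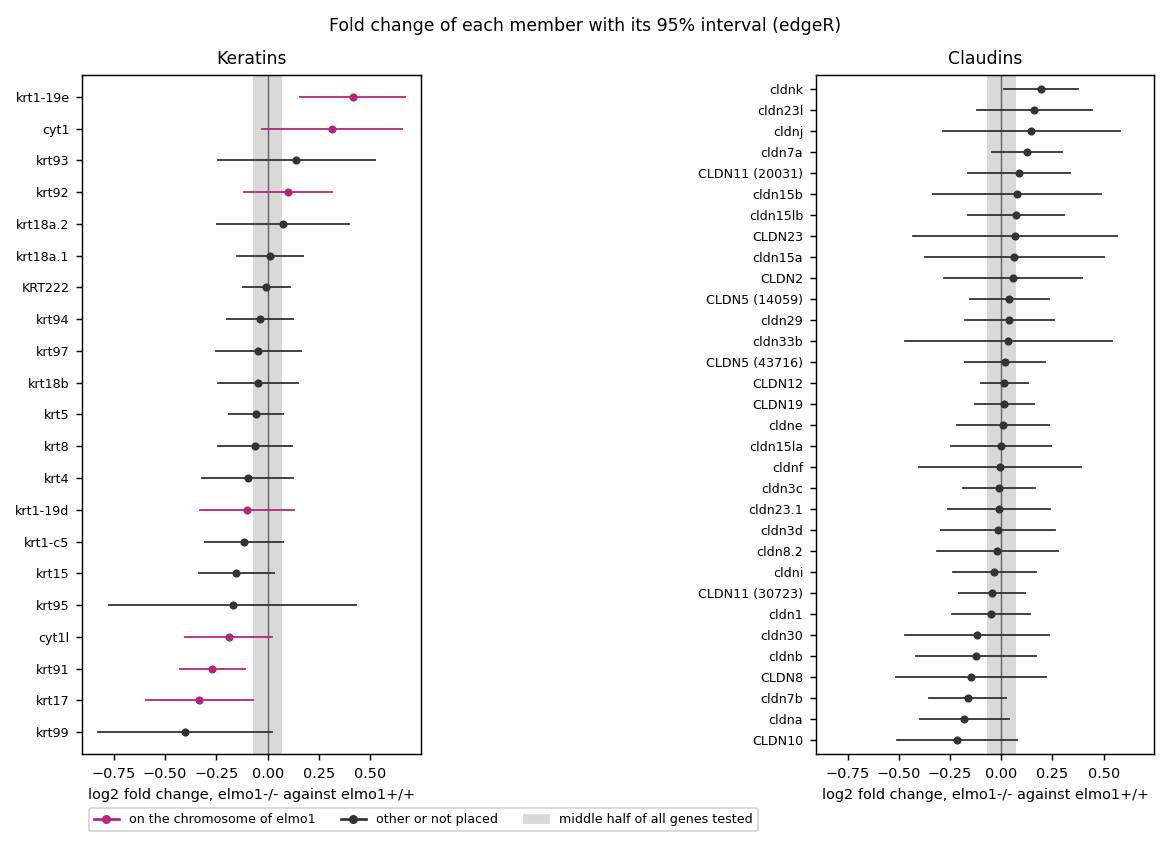
Log2 fold change (elmo1-/- against elmo1+/+) of the 21 keratins and 32 claudins with 95% intervals derived from the edgeR test, and keratins on the chromosome of elmo1 in purple. The grey band runs from the lower to the upper quartile of all genes tested (-0.0697 to 0.0723). Intervals of krt1-19e, krt91, krt17 and cldnk leave out 0.

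The 3 keratins with an unadjusted p under 0.05 were krt91, krt1-19e and krt17. As they were picked by their edgeR p, the unadjusted permutation p-values given for them are no separate evidence. krt91 (ENSDARG00000036830) ranged from 2898 to 3587 CPM in elmo1+/+, with a median of 3246, and from 2449 to 3114 CPM in elmo1-/-, with a median of 2639. Of the 6 elmo1-/- samples, 5 lay below the lowest elmo1+/+ sample, and elmo1-/- 2 lay within the elmo1+/+ range. The log2 fold change was -0.27 (SE 0.074; edgeR p = 0.00237, adjusted p = 0.331; two-sided exact permutation test, p = 0.00866).

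krt1-19e (ENSDARG00000090268), which RefSeq also lists as krtt1c19e, is used as a marker of the basal layer of the zebrafish skin. It ranged from 1586 to 2855 CPM in elmo1+/+, with a median of 2384, and from 2623 to 3387 CPM in elmo1-/-, with a median of 3184. Here 5 of the 6 elmo1-/- samples lay above the highest elmo1+/+ sample. The log2 fold change was 0.42 (SE 0.120; edgeR p = 0.00362, adjusted p = 0.407; two-sided exact permutation test, p = 0.00649). The lowest sample was elmo1+/+ 1, and without it the log2 fold change was 0.33.

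krt17 (ENSDARG00000094041), a periderm keratin in zebrafish, ranged from 404.7 to 626.0 CPM in elmo1+/+, with a median of 515.4, and from 320.3 to 481.7 CPM in elmo1-/-, with a median of 399.1. There were 3 elmo1-/- samples below the lowest elmo1+/+ sample and 3 within the elmo1+/+ range. The log2 fold change was -0.33 (SE 0.122; edgeR p = 0.0156, adjusted p = 0.662; two-sided exact permutation test, p = 0.0455).

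krt99 and cyt1 had the next lowest p-values among keratins. krt99 (ENSDARG00000019365) was rare, with 4.09 to 6.42 CPM in elmo1+/+ (median 4.83) and 2.30 to 6.46 CPM in elmo1-/- (median 3.43). Its log2 fold change was -0.41 with an SE of 0.199 (edgeR, adjusted p = 0.839), and -0.63 without elmo1-/- 5 (adjusted p in edgeR = 0.155). cyt1 (ENSDARG00000092947), a type I keratin of the outer skin layer, ranged from 603.0 to 1184 CPM in elmo1+/+ (median 916.1) and from 800.0 to 1293 CPM in elmo1-/- (median 1168). Its log2 fold change of 0.31 with an SE of 0.161 (edgeR, adjusted p = 0.857) was 0.12 with the effective length as an offset and 0.064 on the log2(TPM + 1) scale. The effective length of cyt1, taken as count over TPM, varied between samples by a coefficient of variation of 15.1%.

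The most abundant keratin, krt4 (ENSDARG00000017624), ranged from 9103 to 13945 CPM in elmo1+/+ (median 10979) and from 9545 to 12353 CPM in elmo1-/- (median 10103). All 6 elmo1-/- samples lay within the elmo1+/+ range. The log2 fold change was -0.097 with an SE of 0.104 (edgeR, adjusted p = 0.968), with a 95% interval from -0.32 to 0.13. It was -0.15 without elmo1+/+ 5 and -0.031 without elmo1+/+ 6.

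The 3 keratins with the lowest p-values were neighbours. By RefSeq for GRCz12tu, an assembly used for names and order only, 46 of the 53 members could be placed. The 7 keratins krt1-19d, krt1-19e, krt92, cyt1l, cyt1, krt17 and krt91 lay side by side in this order. They were on the chromosome of elmo1, 551 to 557 protein-coding genes away from it. None of the claudins that could be placed was on that chromosome, and 7 claudins could not be placed. Of these 7 keratins, 3 had an unadjusted p under 0.05, against 0 of the other 14 keratins. The share was 16.7% of the 593 placed genes on the chromosome of elmo1 and 5.5% of the 13971 placed genes on other chromosomes. At an edgeR adjusted p under 0.05, these shares were 2.53% and 0.115%, with 0 of the 7 keratins. The part of this chromosome, which differs between the genotypes at elmo1, in the values of the 7 genes was not tested.

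Members of this group went in both directions. krt1-19e, cyt1 and krt92 had a log2 fold change above 0, and krt91, krt17, cyt1l and krt1-19d below 0. cyt1l, a close relative of cyt1 by name, had a log2 fold change of -0.19 with an SE of 0.099 (edgeR, adjusted p = 0.870). krt92 and krt1-19d had values of 0.099 (SE 0.0999) and -0.099 (SE 0.108). The sum of the 7 was 9236 ± 876 CPM in elmo1+/+ larvae and 9375 ± 758 CPM in elmo1-/- larvae (mean ± SD of 6 samples), a ratio of 1.02.

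The balance between krt1-19e and krt91 was then described. This pair was chosen after its values were seen, so no test is given. The CPM of krt1-19e was 0.470 to 0.917 times that of krt91 in elmo1+/+, with a median of 0.727. In elmo1-/- samples the ratio was 0.997 to 1.36, with a median of 1.10, so the ratio did not overlap between genotypes while each gene alone did. Among the 21 pairs within the 7 keratins, this was 1 pair without overlap. Pairs of 1 of the 7 with another keratin gave 3 of 98, pairs of the other keratins 0 of 91, and claudin pairs 1 of 496.

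**Figure D3:**
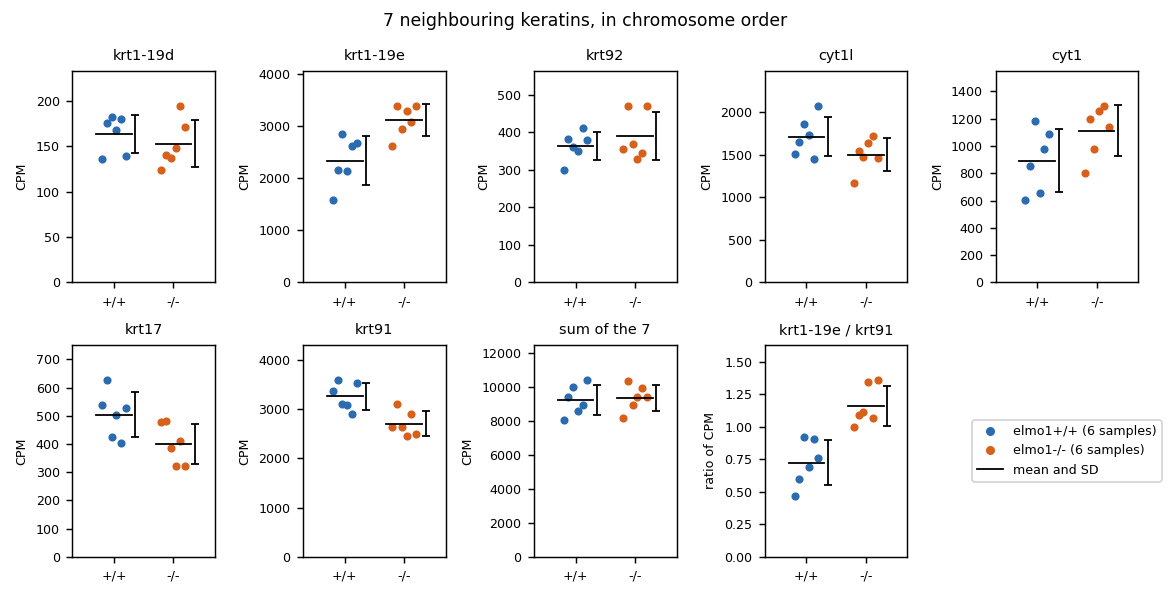
CPM of the 7 neighbouring keratins in chromosome order, their sum, and the ratio of krt1-19e to krt91, with each point a sample and lines for the mean and SD (n = 6 each). The sum overlaps between genotypes, whereas the ratio runs up to 0.917 in elmo1+/+ and from 0.997 in elmo1-/-.

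How reads were shared among these gene copies bears on the values. An expected count that is not whole arises where reads that match several genes are divided between them. Of 9 keratins whose counts were not whole in at least 9 samples, 6 belonged to the 7 neighbours. The counts of krt91 lay 0.136 to 0.480 from a whole number, with a median of 0.286, and those of krt1-19e at most 0.0411. krt92, cyt1l and krt17 had medians of 0.269, 0.284 and 0.180. Summed over the 7 genes, the distance had a median of 0.0480. These distances show that some reads were divided, but not how many. The number of divided reads in krt1-19e, krt91, cyt1l, krt92, cyt1 and krt17 is therefore not known. How far their division set the fold changes was not tested.

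The other 14 keratins were placed on other chromosomes. The simple epithelial keratins krt8, krt18a.1 and krt18a.2, which lie beside krt5, gave log2 fold changes of -0.060 (SE 0.085), 0.011 (SE 0.075) and 0.076 (SE 0.151). krt18b, next to krt4, gave -0.048 (SE 0.092). krt5, at 1822 TPM in elmo1+/+ and 1706 TPM in elmo1-/-, gave -0.057 (SE 0.063). krt93, krt94, krt15 and krt99 form a further group, with a median log2 fold change of -0.094 and 1 member, krt93, above 0. KRT222 and krt97 gave -0.0061 and -0.046. krt1-c5 and the rare krt95 gave -0.11 (SE 0.089) and -0.17 (SE 0.283).

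Turning to the claudins, cldnk (ENSDARG00000042357) had the lowest p. It is known from the myelin of zebrafish rather than from skin. cldnk ranged from 9.73 to 13.4 CPM in elmo1+/+, with a median of 12.5, and from 13.0 to 16.7 CPM in elmo1-/-, with a median of 13.7. All 6 elmo1-/- samples lay above the elmo1+/+ median, and 4 above its highest sample. The log2 fold change was 0.19 (SE 0.085; edgeR p = 0.0369, adjusted p = 0.774; two-sided exact permutation test, p = 0.0130). Leaving out elmo1-/- 6, the highest sample, gave 0.13. No claudin had an unadjusted edgeR p under 0.05 without that sample. The same held when leaving out elmo1+/+ 3, elmo1+/+ 6, elmo1-/- 2 or elmo1-/- 4 in turn. The 6 listed genes of myelinating glia had 4 members above 0 and a median of 0.051, with none passing the edgeR test.

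The pair cldn7a and cldn7b, whose mammalian counterpart is found in many epithelia, gave log2 fold changes of opposite sign. cldn7b (ENSDARG00000014047) ranged from 32.2 to 42.4 CPM in elmo1+/+ (median 33.8) and from 25.5 to 35.8 CPM in elmo1-/- (median 32.6). Its log2 fold change was -0.16 with an SE of 0.088 (edgeR, adjusted p = 0.886), and -0.10 without elmo1+/+ 2. cldn7a (ENSDARG00000036376) ranged from 25.3 to 34.7 CPM in elmo1+/+ (median 31.5) and from 29.9 to 37.6 CPM in elmo1-/- (median 33.5). It had a log2 fold change of 0.13 with an SE of 0.080 (edgeR, adjusted p = 0.928), and 0.075 without elmo1+/+ 1. Neither difference exceeded the spread between samples.

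Of the rare claudins, cldna (ENSDARG00000069888) ranged from 4.17 to 5.41 CPM in elmo1+/+ (median 4.56) and from 3.42 to 4.66 CPM in elmo1-/- (median 4.06). Its log2 fold change was -0.18 with an SE of 0.102 (edgeR, adjusted p = 0.899). CLDN10 (ENSDARG00000104528), whose mammalian counterpart forms ion pores in the kidney, ranged from 3.67 to 5.23 CPM in elmo1+/+ (median 4.34) and from 2.90 to 4.98 CPM in elmo1-/- (median 3.72). Its log2 fold change was -0.21 with an SE of 0.137 (edgeR, adjusted p = 0.928), the most negative value among the claudins.

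The 5 most abundant claudins did not pass the test. cldn1 (ENSDARG00000040045) ranged from 22.8 to 31.7 CPM in elmo1+/+ (median 25.3) and from 21.6 to 30.1 CPM in elmo1-/- (median 24.3). Its log2 fold change was -0.051 with an SE of 0.089 (edgeR, adjusted p = 0.983). For cldn15la (ENSDARG00000016081), the ranges were 27.9 to 41.4 CPM (median 39.5) and 29.4 to 47.3 CPM (median 36.6), with a log2 fold change of -0.00081 (SE 0.115). cldni (ENSDARG00000054616) ranged from 61.3 to 72.6 CPM in elmo1+/+ (median 66.2) and from 58.3 to 89.0 CPM in elmo1-/- (median 60.1), with a log2 fold change of -0.033 (SE 0.095). In cldni, 4 elmo1-/- samples lay below all elmo1+/+ samples and 1, elmo1-/- 5, above them, and without it the log2 fold change was -0.14. cldnb and cldne gave log2 fold changes of -0.12 (SE 0.137) and 0.0090 (SE 0.106).

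The remaining claudins can be given by tissue. Among the intestinal claudin 15 family, cldn15a, cldn15b and cldn15lb gave log2 fold changes of 0.064 (SE 0.205), 0.077 (SE 0.193) and 0.071 (SE 0.110). The CLDN5 copies, known from vessels and neuroepithelium, gave 0.040 (SE 0.091) for ENSDARG00000014059 and 0.019 (SE 0.092) for ENSDARG00000043716. The CLDN11 copies, whose mammalian counterpart belongs to myelin, gave 0.087 (SE 0.117) for ENSDARG00000020031 and -0.045 (SE 0.076) for ENSDARG00000030723. CLDN19 and CLDN2, of the mammalian kidney, gave 0.015 (SE 0.067) and 0.056 (SE 0.158). CLDN8 and cldn8.2 gave -0.15 (SE 0.172) and -0.019 (SE 0.139), and CLDN12, which had the smallest SE of the claudins, gave 0.015 (SE 0.054). The claudin 23 genes cldn23l, CLDN23 and cldn23.1 gave 0.16 (SE 0.131), 0.067 (SE 0.234) and -0.011 (SE 0.117), and the rare cldn33b 0.034 (SE 0.237).

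Claudins that are neighbours in the genome had log2 fold changes of both signs. The group of cldn3c, cldn3d, cldnb, cldn29 and cldn30 had 1 member above and 4 below 0, with a median of -0.016. That of cldnj, cldne, cldnf and cldna had 2 above and 2 below 0. Their widest interval was that of cldnj, known from the zebrafish ear, at 0.15 (SE 0.202).

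At the edge of the count minimum stood krt95, with 6 to 21 counts, and cldn33b, with 7 to 18 counts, each reaching 10 in 11 samples. Just below it was krt98, with 2 to 17 counts and 4 samples at 10. Of the 7 claudins below the minimum, cldng reached at most 14 counts, cldn10d 10, cldn18 10.1, cldn10l2 and cldn26 6, a further CLDN10 copy (ENSDARG00000058937) 4 and cldn10e 3. These 8 genes were left out of all counts of members above, and a count of 0 allows up to 3 counts in a sample.

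Members also differed between samples of the same genotype. The highest of the 12 values was in elmo1+/+ 2 for 14 members and the lowest in elmo1-/- 4 for 14 members. Samples elmo1-/- 2 and elmo1-/- 5 were highest for 9 members each. Within a genotype, the median coefficient of variation was 13.4% in elmo1+/+ and 11.8% in elmo1-/- for keratins, 12.3% and 15.6% for claudins, and 11.4% and 11.9% for all genes tested.

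**Figure D4:**
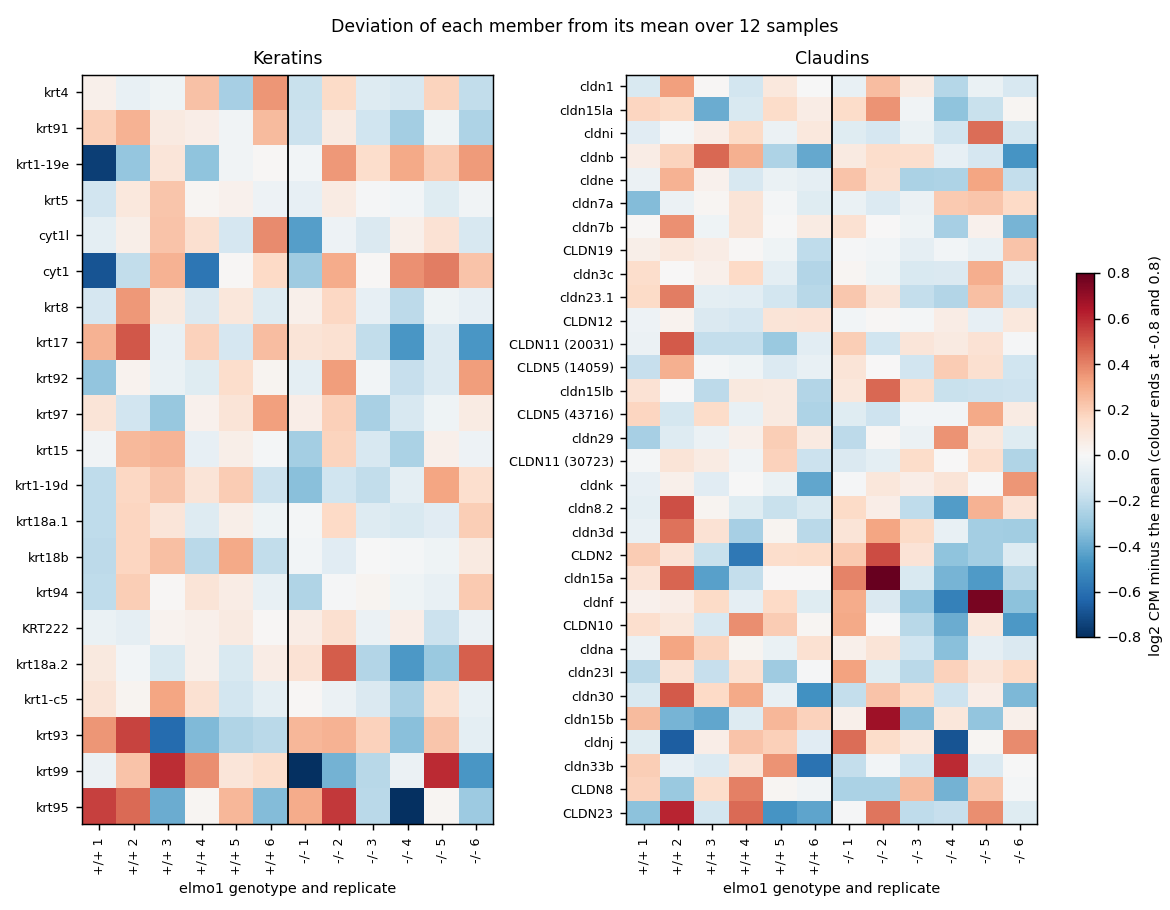
Log2 CPM of each member less its mean over the 12 samples, as a colour map with members in rows and samples in columns, elmo1+/+ to the left. krt1-19e is low in elmo1+/+ 1, and no sample or genotype stands out across all rows.

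Junction partners and anchors of the keratins were examined in 5 lists. The tight junction list, with occludins, Tjp scaffolds and polarity proteins, held 10 genes above and 26 below 0, with a median log2 fold change of -0.028. The desmosome and cornified envelope list held 2 above and 12 below (median -0.081), the hemidesmosome list 4 and 7 (-0.041), the adherens junction list 3 and 9 (-0.049) and the epidermal transcription factors 4 and 12 (-0.045). Together the lists held 23 genes above and 66 below 0, with a median of -0.042. Over all genes tested, 48.3% were below 0 and the median was 0.00427. The signs of the lists were not tested. No gene of the 5 lists passed the edgeR test, beside 0.234% of all genes, and 3 of their 89 genes had an unadjusted p under 0.05, beside 6.16% of all genes.

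These 3 genes were a JUP copy, a VCL copy and AFDN. JUP (ENSDARG00000059067), the plakoglobin of desmosomes, averaged 5.34 ± 0.66 CPM in elmo1+/+ and 4.24 ± 0.75 CPM in elmo1-/- (log2 fold change -0.33, SE 0.124; adjusted p in edgeR = 0.682). VCL (ENSDARG00000098695), the actin linker vinculin, averaged 9.96 ± 1.60 CPM and 7.47 ± 1.56 CPM (-0.41, SE 0.134; adjusted p in edgeR = 0.534). AFDN (ENSDARG00000029472), the adherens junction protein afadin, averaged 53.1 ± 2.9 CPM and 58.3 ± 3.7 CPM (0.13, SE 0.054; adjusted p in edgeR = 0.723; SD, n = 6 each throughout). The 2 genes lowest in p were taken from each list, which is not the order in p over all lists. Besides these 3, they were pkp2 (-0.25), MARVELD1 (-0.31), pard3aa (-0.41), col17a1b (-0.11), LAMA5 (-0.084), KLF5 (ENSDARG00000015506, -0.095) and grhl3 (-0.14). None of them passed the test. JUP and VCL each had another, more abundant copy with a smaller log2 fold change. That of JUP (ENSDARG00000070787) averaged 112.3 ± 6.2 CPM in elmo1+/+ and 107.4 ± 10.5 CPM in elmo1-/- (-0.065). That of VCL (ENSDARG00000044968) averaged 26.1 ± 1.7 CPM and 25.8 ± 2.7 CPM (-0.019).

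Markers of the skin layers stood beside the keratins as follows. The 9 periderm markers had 1 gene above and 8 below 0. Their summed level was 7597 to 10668 TPM in elmo1+/+ and 7267 to 10492 TPM in elmo1-/- samples. krt4, krt17, cyt1 and cyt1l are among the 9, so this count and sum are not separate from the keratin values above. Besides anxa1c, the markers that are not keratins were icn2, evpla, agr1 and PPL. Their log2 fold changes were -0.17, -0.16, -0.097 and -0.085, and none passed the edgeR test. Of these, evpla and PPL were already counted in the desmosome and cornified envelope list. anxa1c, an annexin of the periderm named here after its values were seen, had the lowest p, with 24.9 to 42.3 CPM in elmo1+/+ (median 34.2) and 11.03 to 23.1 CPM in elmo1-/- (median 21.1). The genotypes did not overlap, and the log2 fold change was -0.77 with an SE of 0.157 (edgeR, adjusted p = 0.0760). The 6 basal epidermis markers tested had 2 above and 4 below 0. The list, with 7 matched identifiers, summed to 134.1 to 167.0 TPM in elmo1+/+ and 127.3 to 187.3 TPM in elmo1-/- samples. The keratins krt93 and krt94 are among the 6 tested, so this count and sum are not separate from the keratin values either. The rest of the 6 were also counted in the lists above. These are col17a1a, col17a1b and ITGB4 in the hemidesmosome list and TP63 among the epidermal transcription factors. The basal layer marker krt1-19e was on the basal list under its other name krtt1c19e. That name matched no identifier, so neither the count nor the sum includes this gene. By itself krt1-19e averaged 2010 TPM in elmo1+/+ and 2604 TPM in elmo1-/- samples, far above that sum. Its change was upward, at 0.42 on the log2 scale, and did not pass the edgeR test. The part of cell composition in the keratin values was not tested.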

How the data were processed

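Total RNA was isolated on RNeasy columns from 12 samples of 30 whole larvae and sequenced on a BGISEQ-500. The submitters' processing notes name Trim Galore (version 0.6.4), kallisto (version 0.4.6) and the build GRCz11. The deposited files hold estimated (expected) counts per gene and TPM per gene, which the authors scaled to 1e+06 per sample for transcript length and depth. Between 23.0% and 24.3% of the values in a sample were not whole (tolerance 0.01), so the deposited expected counts were rounded to whole numbers. Whole-number counts had been assumed in the design.

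Counts were tested with edgeR (version 4.0.16, in R 4.3.3), using TMM factors, filterByExpr with a minimum count of 10, the quasi-likelihood test of genotype over all 12 samples, and Benjamini-Hochberg adjustment over all 21830 genes tested at a threshold of 0.05. All 53 members were tested. Single values were compared by two-sided exact permutation tests over 924 relabellings. These p-values are unadjusted. For members they are given only for those picked by their edgeR p in the same samples, so they are no separate evidence. The fit was tested on simulated data with known changes. It recovered 87 of 99 changes of 1 log2 unit and 60 of 100 changes of 0.5, with 4 false calls among 151. Changes of 0.5 or less can therefore be missed, and so can some changes of 1 log2 unit. Counts differed beyond sampling noise in each of the 66 sample pairs, so no sample was taken as a repeat of another. Each sample counted as 1 replicate, but this comparison does not show that the pools came from separate clutches.

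Symbols were matched for 29201 of 32520 identifiers. Upper-case symbols name orthologues that several zebrafish copies can share. For the lists, a symbol without a match was sought without its copy letter, a rule chosen after the symbol table was seen. The members, the 5 related lists and the 12 marker lists were chosen with earlier results of these data known. Members given with full statistics are, in each family, those called, those without overlap, the 5 lowest in p and the 3 highest in mean TPM, and for each related list those called and the 2 lowest in p. The alternatives tried were DESeq2 (version 1.42.0), limma-voom, limma-trend (limma version 3.58.1) with TPM at a pseudocount of 1 or 0.1 on the log2 scale, upper-quartile and median-ratio factors in edgeR, looser and stricter filters, an effective length offset, a replicate block, percent of counts, all identifiers by symbol, and leaving out each replicate.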

Additional observations from a re-analysis of the deposited data

Results flagged for a closer look

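In 12 cases a single claudin value lay far from the other samples of its genotype, by the gap to the nearest sample over the whole range of the 6 samples. Every member, both family sums and elmo1 were examined in each genotype, and chance marks about 1 in 20 such sets of 6 samples, here 5.6. In elmo1+/+ 2, cldne was at 63.2 CPM (others 47.7 to 53.4), cldn7b at 42.4 CPM (32.2 to 35.4), CLDN11 (ENSDARG00000020031) at 17.2 CPM (9.95 to 11.9), CLDN5 (ENSDARG00000014059) at 12.8 CPM (9.20 to 10.4) and cldn8.2 at 10.96 CPM (6.74 to 7.75). In elmo1-/- 5, cldni was at 89.0 CPM (58.3 to 62.7) and cldn3c at 29.2 CPM (22.0 to 24.1). In elmo1-/- 6, CLDN19 was at 20.8 CPM (16.8 to 17.6) and cldnk at 16.7 CPM (13.0 to 14.0). cldnk was also low in elmo1+/+ 6, at 9.73 CPM (12.2 to 13.4). In elmo1-/- 2, cldn15b was at 3.92 CPM (1.88 to 2.59), and in elmo1-/- 4, cldn33b was at 0.879 CPM (0.470 to 0.549). No keratin value was marked in this way.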

How the results depend on the processing

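No keratin, claudin or gene of the related lists passed an adjusted p under 0.05 in any of the alternatives. The smallest adjusted p of a member was 0.0603, for krt91 in DESeq2. DESeq2 called 97 genes over all (44 higher, 53 lower) against 51 in edgeR, and elmo1 with a log2 fold change of -0.26 (adjusted p = 0.00817). Calls over all genes fell to 35 (15 higher, 20 lower) with at least 10 counts in every sample, and ranged from 34 without elmo1-/- 3 to 67 without elmo1-/- 5. Among the named members, the log2 fold change changed sign in cldn15la and cldn1. For cldn15la, it was 0.0117 in limma-voom, 0.000246 without a filter, 0.000738 with the length offset, and a range of -0.0833 to 0.0585 when leaving out each replicate. For cldn1 the range was -0.112 to 0.0154, above 0 only without elmo1+/+ 2. The cause was not tested. The median log2 fold change ranged from -0.0902 to -0.0320 for keratins and from -0.0252 to 0.0291 for claudins when leaving out each replicate. The claudin median was also below 0 on both TPM scales, at -0.0501 and -0.0515.

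Same-numbered samples of the genotypes correlated by 0.130 on average in their deviations from the genotype mean. Of the 6 pairs, 4 exceeded 0.1, and 4 of 6 elmo1+/+ samples correlated best with their own number. The labels do not say that the numbers pair the samples, and the main test was unpaired. Whether same-numbered samples share an origin was not tested, and these values do not exclude it. With the replicate block, 60 genes were called over all and 0 members. The adjusted p of krt1-19e was then 0.0851, 6 keratins and 0 claudins had an unadjusted p under 0.05, beside 7.55% of all genes in that fit, and the log2 fold changes of elmo1, cldn1 and the other named members kept their sign.

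Of the 53 members, 6 keratins and 6 claudins had 95% intervals that reached beyond 0.5 on the log2 scale, the abundant krt1-19e, cyt1 and krt17 and the rare krt95 and cldn33b among them. Reads shared between gene copies and the effective length were set by the authors' quantification and were not recomputed here.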

Other observations

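Markers of other tissues in the same samples gave the following values. Of the genes tested in the 12 marker lists, 1 passed the edgeR test, beside 0.234% of all genes tested. It was the endothelial transcription factor FLI1, 1 of 5 endothelial markers tested. FLI1 was matched from the listed symbol fli1b without its copy letter. It ranged from 101.5 to 108.6 CPM in elmo1+/+ and from 72.2 to 89.6 CPM in elmo1-/- samples (log2 fold change -0.38, SE 0.055; edgeR adjusted p = 0.00447). The EGFP transgene of both genotypes is named after fli1, and which zebrafish copy this identifier stands for was not checked. By sign, 5 of 7 ionocyte, 6 of 9 intestinal, 5 of 9 pronephros, 4 of 6 myelinating glia, 3 of 5 liver and 6 of 6 skeletal muscle markers were above 0. Of the mucous cell markers 3 of 4, of the endothelial markers 4 of 5, of the neuronal markers 4 of 7 and of the notochord and cartilage markers 6 of 6 were below 0. None of these counts was tested.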
